A study of Mus musculus with 6 samples.

Results

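The miR-183 cluster is a set of 3 mouse microRNA (miRNA) genes, Mir183, Mir96 and Mir182, whose guide strands mmu-miR-183-5p, mmu-miR-96-5p and mmu-miR-182-5p (written without the species prefix from here on) were followed here in neuron-like cells treated with RSL3. The members were all table entries named miR-183, miR-96 or miR-182 on either arm, which gave 3 of the 685 mature miRNAs listed. All 3 were 5p strands, and the 3p strands are not analysed here. The cells were N2a, a single mouse neuroblastoma line, differentiated with 10 µM retinoic acid over 96 h in both groups. RSL3 was then added at 5 µM for 24 h in the treated group, and the control group received the same amount of the solvent DMSO, with 3 libraries in each group. RSL3 inhibits GPX4, the enzyme that reduces lipid peroxides in membranes, and is used to induce the iron-dependent death called ferroptosis. The comparison asks whether the strands of this cluster differ after RSL3. Whether replicates came from separate cultures is not stated in the labels, so a p-value here sets a difference against the spread of these libraries, which may be technical. In these bulk libraries, fewer cells holding a miRNA and less of it in each cell cannot be told apart.

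The cluster is transcribed as a single primary RNA and is best known from photoreceptors, hair cells of the inner ear and sensory ganglia, where its 3 strands build up together as the cells mature. Changes in the seed of miR-96 cause progressive hearing loss in mice and people, and in mouse sensory neurons the cluster limits sensitivity to touch after nerve injury. In human tumour cells the strands are best known for repressing FOXO1, a transcription factor of stress responses.

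The sequences are shown first because the seed, bases 2 to 8 from the 5′ end, decides which messenger RNAs a strand can bind. The mature strands, from RefSeq on GRCm38.p6 and matched by name for all 3 members, are written 5′ to 3′ with the seed in capitals.
miR-183-5p: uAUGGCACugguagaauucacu
miR-96-5p: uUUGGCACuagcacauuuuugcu
miR-182-5p: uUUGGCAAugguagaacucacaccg
Bases 2 to 7 are the same in miR-96-5p and miR-182-5p, and base 8 separates them, as A8C from miR-182-5p to miR-96-5p with positions counted from the 5′ end. The seed of miR-183-5p differs from that of miR-182-5p by U2A and A8C. Over the whole strand the likeness is reversed. There miR-182-5p and miR-183-5p are equal at 18 of 22 positions, with C17U and A22U as the other differences. By contrast, miR-182-5p and miR-96-5p are equal at 12 of 23. The only other mouse miRNA in the RefSeq table with the same bases 2 to 7 as a member is miR-1271-5p, on chromosome 13, which carries the whole seed of miR-96-5p and is not analysed here.
miR-1271-5p: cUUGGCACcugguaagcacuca

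The 3 hairpins lie on the minus strand of chromosome 6 (GRCm38.p6) within 3820 bases, from 30165918 to 30169737, and are transcribed in the order Mir183, Mir96, Mir182. Mir183 covers 30169668 to 30169737, Mir96 covers 30169446 to 30169551 and Mir182 covers 30165918 to 30165992. Mir183 and Mir96 are 116 bases apart, while 3453 bases separate Mir96 from Mir182. In the GENCODE annotation no other gene overlaps this span, so the hairpins are intergenic there. The nearest protein-coding genes are Nrf1, which ends 12459 bases away at lower coordinates, and Ube2h, which ends 41551 bases away at higher coordinates. The long non-coding RNA gene Rncr4 starts 3155 bases beyond Mir183 on the plus strand. The hairpins are printed with the measured guide strand in capitals, to show that in each of them it is the 5′ arm.
Mir183 hairpin: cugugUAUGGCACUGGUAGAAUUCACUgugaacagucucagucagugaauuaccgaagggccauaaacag
Mir96 hairpin: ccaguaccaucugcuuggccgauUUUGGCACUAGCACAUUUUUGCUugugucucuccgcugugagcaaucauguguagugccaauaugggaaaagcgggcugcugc
Mir182 hairpin: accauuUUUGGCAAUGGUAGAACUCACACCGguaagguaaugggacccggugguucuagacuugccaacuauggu

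Levels are given as deposited, in miRNA reads scaled to a common total (CPM) with a library scaling factor already applied. The reads behind each value were recovered from the steps in the tables and totalled 3406276 to 4989380 per RSL3 library and 4306460 to 6058006 per DMSO library. A level is a number of strands read, so no length scaling applies, but strands can differ in how well adapters join to them. The cells carried neuronal miRNAs, with miR-9-5p at 4259 ± 962 and 3240 ± 723 CPM and the neuron-restricted miR-124-3p at 179 ± 36.9 and 148 ± 15.2 CPM in RSL3 and DMSO libraries (SD, n = 3 each). The sensory cluster was a minor part of this pool.

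In the RSL3 libraries the cluster held 180, 260 and 299 reads, and in the DMSO libraries 294, 199 and 327 reads, which was 0.00459% to 0.00763% and 0.00462% to 0.00623% of all miRNA reads. The order of levels was miR-182-5p, then miR-183-5p, then miR-96-5p in each of the 6 libraries, and the ranges of neighbouring members over the 6 libraries did not overlap. By mean level miR-182-5p ranked at place 295, miR-183-5p at 378 and miR-96-5p at 628 of 685.

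The strand miR-182-5p, the most abundant of the 3, had 37.1, 52.1 and 46.1 CPM in RSL3 libraries 1 to 3, against 34.6, 32.4 and 38.0 CPM in DMSO libraries 1 to 3. RSL3 libraries 2 and 3 lay above all DMSO libraries, while RSL3 library 1 lay just under DMSO library 3, so the groups overlapped. The means were 45.1 ± 7.54 CPM in RSL3 and 35.0 ± 2.81 CPM in DMSO libraries (SD, n = 3 each). The log2 fold change was 0.35 ± 0.17 (SE), with a 95% interval from -0.02 to 0.71 and a limma adjusted p of 0.31. The unadjusted limma p of 0.059 stood at place 126 among 666 miRNAs tested. Expressed as a fold, the interval ran from 0.990 to 1.63.

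The strand miR-183-5p had 8.64, 27.3 and 12.8 CPM in RSL3 libraries 1 to 3, against 9.72, 10.2 and 24.4 CPM in DMSO libraries 1 to 3. A single library of each group, RSL3 library 2 and DMSO library 3, stood well above the rest, and the groups overlapped over most of their range. The means were 16.3 ± 9.79 CPM in RSL3 and 14.8 ± 8.34 CPM in DMSO libraries (SD, n = 3 each). The log2 fold change was 0.10 ± 0.38 (SE), with a 95% interval from -0.72 to 0.93 and a limma adjusted p of 0.90. Its direction turned without RSL3 library 2 (-0.33), without DMSO library 1 (-0.12) and without DMSO library 2 (-0.08). The fold that the interval allows ran from 0.606 to 1.90.

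The strand miR-96-5p, the one tied to hearing loss, was near the detection limit. It had 0, 7 and 5 reads in RSL3 libraries 1 to 3, against 11, 7 and 10 reads in DMSO libraries 1 to 3. These were 0, 2.20 and 1.00 CPM in RSL3 libraries and 1.72, 1.55 and 1.97 CPM in DMSO libraries. RSL3 libraries 1 and 3 lay below all DMSO libraries and RSL3 library 2 above them, so the groups overlapped. The count of 0 allows up to 3 reads, or 0.762 CPM, in that library, and the exact 95% Poisson interval reaches 0.938 CPM; both cover counting error only. The means were 1.07 ± 1.10 CPM in RSL3 and 1.75 ± 0.208 CPM in DMSO libraries (SD, n = 3 each). On the log2(CPM + 1) scale, which understates changes at this level, the change was -0.56 ± 0.37 (SE), with a 95% interval from -1.37 to 0.24 and a limma adjusted p of 0.44. It was -0.17 with a pseudocount of 5. Without RSL3 library 1 it was -0.12, and without RSL3 library 2 it was -0.95 with a limma adjusted p of 0.16.

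**Figure D1:**
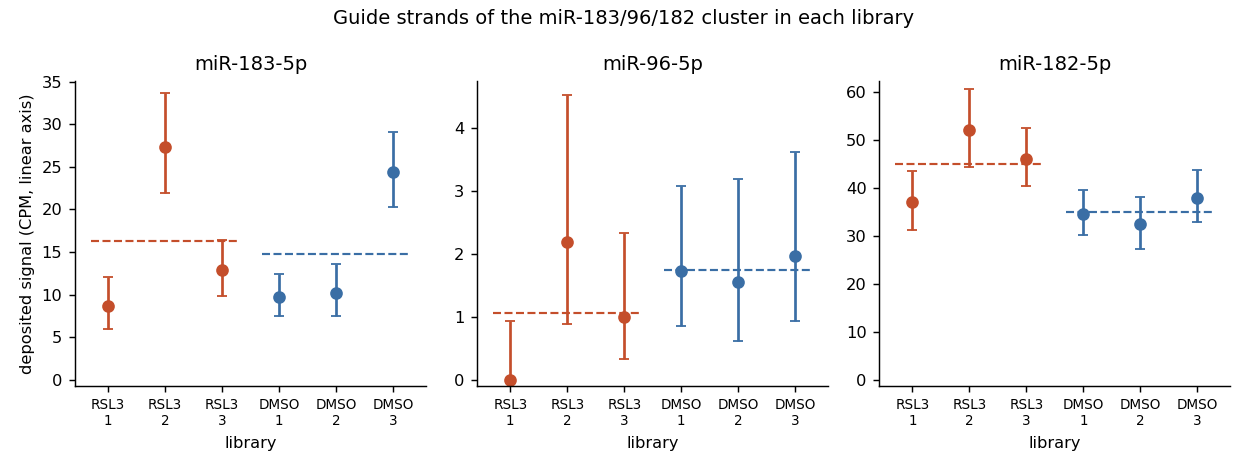
Level of miR-183-5p, miR-96-5p and miR-182-5p in CPM on a linear axis, with 1 point per library (RSL3 left, DMSO right), exact 95% Poisson intervals of the reads as bars, which cover counting error only, and group means as dashed lines. RSL3 library 2 and DMSO library 3 carry the high miR-183-5p values of 27.3 and 24.4 CPM, and the miR-96-5p intervals are wide because each rests on 11 reads or fewer.

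Of the 3 members, 0 passed the limma test over all miRNAs, in which 0.751% of those tested were called. At an unadjusted p under 0.05, where 17.3% of all miRNAs fell, there were also 0 of the 3. In edgeR on the recovered reads 0 of 3 were called, against 0.901% of all. In DESeq2 0 of the 2 members given an adjusted p were called, against 10.5% of the miRNAs with one, and miR-96-5p was given none. The groups failed to overlap in 0 of the 3 members, against 24.3% of all tested miRNAs. Over all 666 the median log2 fold change was 0.00134.

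**Figure D2:**
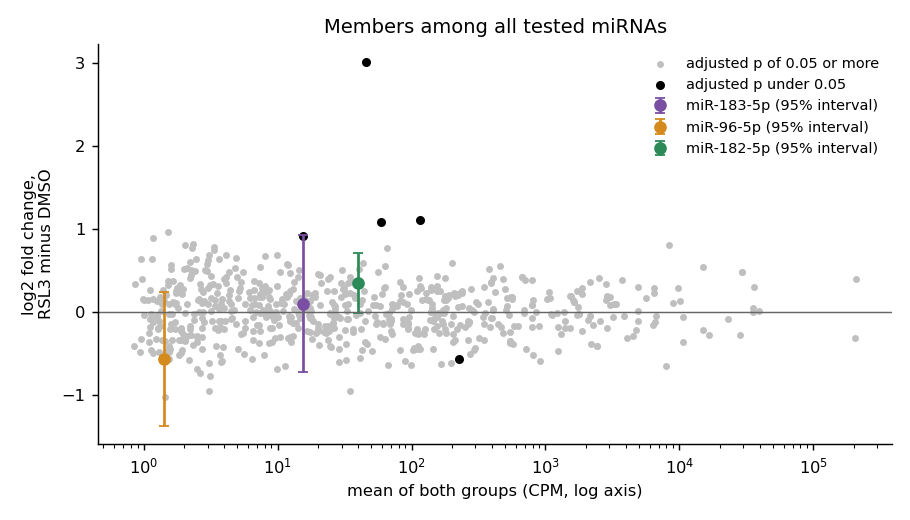
Log2 fold change (RSL3 minus DMSO) of each of the 666 tested miRNAs against its mean level in CPM on a log axis, with the members in colour and their 95% limma intervals as bars. All 3 intervals include 0: miR-182-5p at 0.35, miR-183-5p at 0.10 and miR-96-5p at -0.56.

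**Figure D3:**
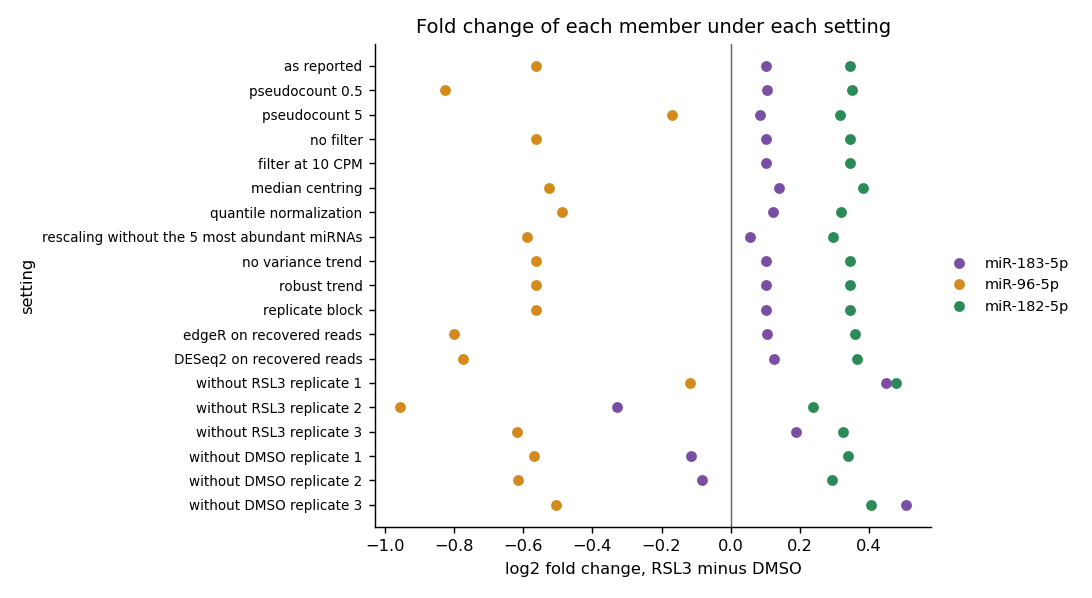
Log2 fold change (RSL3 minus DMSO) of each member under each setting and with each library left out. The miR-182-5p values stay between 0.24 and 0.48, the miR-96-5p values between -0.95 and -0.12, and the miR-183-5p values cross 0 when RSL3 replicate 2, DMSO replicate 1 or DMSO replicate 2 is left out.

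Summed over the 3 strands, the cluster was at 45.7, 81.6 and 60.0 CPM in RSL3 libraries 1 to 3, against 46.1, 44.2 and 64.4 CPM in DMSO libraries 1 to 3. The groups overlapped, with RSL3 library 1 between DMSO libraries 2 and 1. The means were 62.4 ± 18.0 CPM in RSL3 and 51.5 ± 11.1 CPM in DMSO libraries (SD, n = 3 each; two-sided exact permutation p = 0.6). In this design of 3 against 3 libraries that test can give no p below 0.1. The difference of 10.9 CPM was 1.32 CPM without RSL3 library 2 and 19.2 CPM without RSL3 library 1.

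Because the strands come from a single transcript, their proportions within a library were compared next. These do not depend on how libraries were scaled. The strand miR-182-5p held 81.1%, 63.8% and 76.9% of the cluster's reads in RSL3 libraries 1 to 3, against 75.2%, 73.4% and 59.0% in DMSO libraries 1 to 3. For miR-183-5p the shares were 18.9%, 33.5% and 21.4% in RSL3 libraries, against 21.1%, 23.1% and 37.9% in DMSO libraries. Here too RSL3 library 2 and DMSO library 3 stood apart from the other libraries. In those libraries 1.91 and 1.56 reads of miR-182-5p were seen per read of miR-183-5p, against 3.17 to 4.29 in the other libraries.

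For miR-183-5p the spread between libraries of a group was larger than counting error. Summed over miRNAs with at least 20 reads in a pair, every pair of replicates also differed by more than counting noise (chi-square per degree of freedom 82.8 to 292). Abundant miRNAs can carry most of that sum, so it does not show the spread at the members' level. The 95% Wilson interval of the miR-183-5p share was 28.0% to 39.4% in RSL3 library 2, apart from 13.8% to 25.2% in RSL3 library 1 and 17.1% to 26.4% in RSL3 library 3. Likewise it was 32.8% to 43.3% in DMSO library 3, apart from 16.8% to 26.1% in DMSO library 1 and 17.8% to 29.4% in DMSO library 2. Over the 6 libraries the SD of log2(CPM + 1) was 0.67 for miR-183-5p, place 7 from the top among 666 miRNAs. It was 0.62 for miR-96-5p, place 16, which rests on 0 to 11 reads per library, so counting error weighs on it. For miR-182-5p the SD was 0.25, equal to the median of all miRNAs when rounded. RSL3 library 2 and DMSO library 3 also had the lowest scaling factors in the deposited values, 0.936 and 0.968, against 0.999 to 1.05 in the others. Without that factor miR-183-5p was still at 25.5 and 23.6 CPM in them, and at 8.66 to 12.8 in the other libraries.

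**Figure D4:**
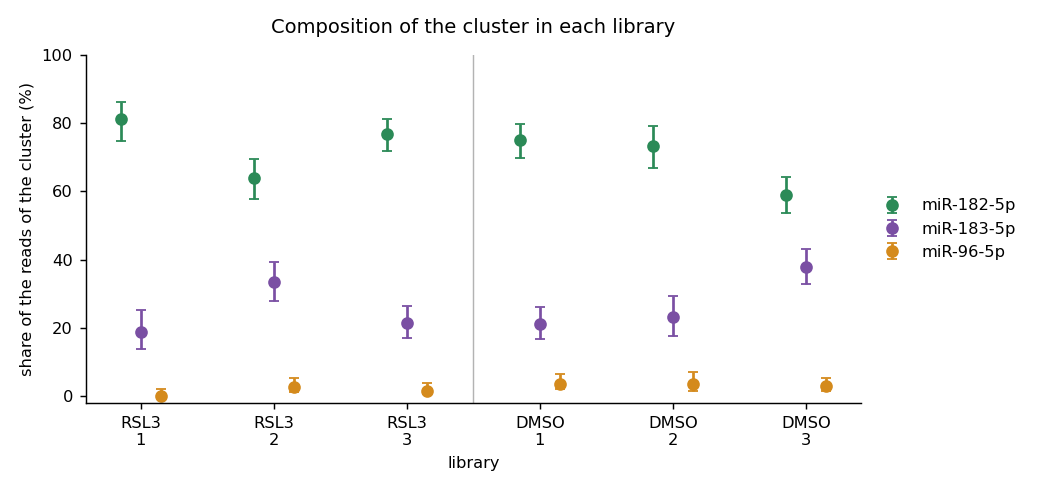
Share of the cluster's reads taken by each strand, in percent, for each library (RSL3 left, DMSO right), with 95% Wilson intervals as bars. The miR-183-5p share is 33.5% in RSL3 library 2 and 37.9% in DMSO library 3, and 18.9% to 23.1% in the other libraries.

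The log2 ratio of miR-183-5p to miR-182-5p averaged -1.55 ± 0.57 in RSL3 and -1.31 ± 0.60 in DMSO libraries (SD, n = 3 each), and the exact permutation p was 0.5. The difference of -0.24 became 0.10 without DMSO library 3. The ratio of miR-96-5p to miR-182-5p, the pair that shares bases 2 to 7, was -5.25, -4.05 and -4.56 in RSL3 libraries 1 to 3, against -3.71, -3.71 and -3.72 in DMSO libraries 1 to 3. All RSL3 libraries lay below all DMSO libraries in this ratio, which uses log2(CPM + 1) values. The difference of -0.91, or -0.49 with a pseudocount of 5, had an exact permutation p of 0.1, the smallest this design allows, and 0.3 after Benjamini-Hochberg adjustment over the 3 ratios, so it did not pass. Without RSL3 library 1, where miR-96-5p had 0 reads, the difference was -0.59. In shares of reads, miR-96-5p made up 0%, 2.69% and 1.67% of the cluster in RSL3 libraries, against 3.74%, 3.52% and 3.06% in DMSO libraries. The count of 0 among 180 reads allows a share of up to 1.67% at 3 reads. Its Wilson interval reaches 2.09%, above the lower limits of DMSO libraries 2 and 3 (1.71% and 1.67%) and just under that of DMSO library 1 (2.10%). The Wilson intervals of the other RSL3 libraries, 1.31% to 5.45% and 0.716% to 3.85%, overlapped those of all DMSO libraries. The ratio of miR-183-5p to miR-96-5p averaged 3.07 ± 0.25 in RSL3 and 2.40 ± 0.61 in DMSO libraries (SD, n = 3 each; exact permutation p = 0.2, 0.3 adjusted over the 3 ratios). That difference of 0.67 was 0.25 with a pseudocount of 5 and 1.01 without DMSO library 3.

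The strands' profiles over the 6 libraries were then set against each other and against other miRNAs, by the root-mean-square distance of log2(CPM + 1) values centred on each miRNA's mean. The 6 points are shared libraries, so these distances are descriptions. Between miR-183-5p and miR-182-5p the distance was 0.49, and miR-182-5p was number 61 of 665 in nearness to miR-183-5p. Between miR-183-5p and miR-96-5p it was 0.50, and miR-96-5p was number 75. Seen from miR-182-5p, whose own profile was flatter, miR-183-5p was number 593 and miR-96-5p number 635. Seen from miR-96-5p, miR-183-5p was number 117 and miR-182-5p number 260. The strands of this transcript were therefore not each other's nearest profiles by this distance, which also grows with how far a profile swings. The profile of miR-96-5p rests on 0 to 11 reads per library, so counting error weighs on its distances.

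Of 415 other miRNAs with a mean of at least 10 CPM, the 5 nearest to the mean profile of the 3 strands were miR-10a-5p, miR-451a, miR-466a-5p, miR-15b-3p and miR-410-3p, at distances of 0.17 to 0.21. The nearest, miR-10a-5p, is encoded in a Hox cluster and had 13.5, 25.1 and 14.2 CPM in RSL3 libraries 1 to 3, against 15.0, 16.4 and 22.0 CPM in DMSO libraries 1 to 3. The red-cell miRNA miR-451a had 60.5, 115 and 67.0 CPM in RSL3 libraries, against 76.8, 58.8 and 88.2 CPM in DMSO libraries. Both had their top value in RSL3 library 2 and the next in DMSO library 3, as miR-183-5p did. The 5 were picked by such likeness, so these shared peaks are no separate result. The miR-15 relative miR-15b-3p averaged 226 ± 66.9 CPM in RSL3 and 193 ± 35.9 CPM in DMSO libraries. The Mirg-cluster miRNA miR-410-3p averaged 14.7 ± 5.54 and 15.0 ± 2.79 CPM, and the repeat-derived miR-466a-5p 11.2 ± 3.15 and 10.8 ± 0.727 CPM, in RSL3 and DMSO libraries (SD, n = 3 each). Their limma adjusted p-values were 0.64 to 0.98. Blood is the cell type miR-451a marks, and 1 of the 4 blood miRNAs listed for this check was measured, miR-451a itself. The labels name no blood cells, only N2a cells, and why miR-451a followed this profile was not tested.

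**Figure D5:**
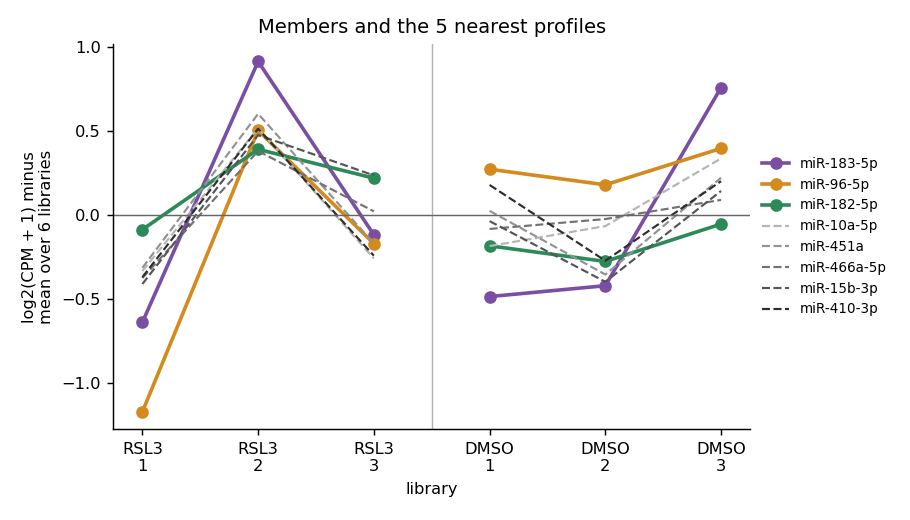
Log2(CPM + 1) minus its mean over the 6 libraries for the members (solid) and the 5 miRNAs with the nearest profiles (dashed), with RSL3 libraries left and DMSO libraries right. Lines only join the points of a miRNA within a group, and replicates have no order. In the RSL3 group all 8 miRNAs peak in library 2, while in the DMSO group miR-182-5p stays within a narrow range.

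Other miRNAs known from the eye, ear and sensory neurons were described from a list of 10, of which 9 were measured and tested. Of these 0 passed in limma or edgeR, against 0.751% and 0.901% of all miRNAs. DESeq2 called 0 of them, against 10.5% of the miRNAs with an adjusted p. At an unadjusted limma p under 0.05 there were 2 of the 9, near the 17.3% of all. A positive log2 fold change was seen in 5 and a negative one in 4, with a median of 0.05. The list's most abundant members were miR-9-5p, a miRNA of neural progenitors and neurons, at a log2 fold change of 0.39 (limma adjusted p = 0.27), and miR-29a-3p, at 1731 ± 168 CPM in RSL3 and 2017 ± 119 CPM in DMSO libraries (log2 fold change -0.22, limma adjusted p = 0.32). The retinal and lens miRNA miR-204-5p was at 16.8 ± 0.957 CPM in RSL3 and 17.3 ± 2.45 CPM in DMSO libraries, a level like that of miR-183-5p but with a smaller spread (SD, n = 3 each).

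Among 6 measured miRNAs besides the cluster that are reported to act on FOXO1, 0 passed in limma or edgeR, against 0.751% and 0.901% of all miRNAs. DESeq2 called 0 of the 5 to which it gave an adjusted p, against 10.5% of all miRNAs with one. It gave none to miR-135a-5p (limma adjusted p = 0.24). That miRNA was at 2.88 ± 0.513 CPM in RSL3 and 1.54 ± 0.198 CPM in DMSO libraries (SD, n = 3 each). At an unadjusted limma p under 0.05 there were 2 of the 6, against 17.3% of all, and the median log2 fold change was 0.12. The most abundant were miR-27b-3p, at 36291 ± 4810 CPM in RSL3 and 34788 ± 1746 CPM in DMSO libraries (SD, n = 3 each), and miR-9-5p. Every library thus held far more reads of miR-27b-3p than of miR-182-5p. Among 6 measured miRNAs reported to act on MITF, the pigment-cell transcription factor, 0 passed in limma, edgeR or DESeq2. At an unadjusted limma p under 0.05 there were 1 higher and 1 lower of the 6, against 17.3% of all, and the median log2 fold change was 0.06. Here miR-148b-3p was at 6166 ± 1945 CPM in RSL3 and 9663 ± 2799 CPM in DMSO libraries (log2 fold change -0.65, limma adjusted p = 0.16). The next most abundant, miR-101a-3p, was at 2409 ± 207 CPM in RSL3 and 1872 ± 167 CPM in DMSO libraries (0.36, limma adjusted p = 0.11).

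Entries used in tissue as markers of cell types were also read, as levels within this single N2a line. Of 7 epithelial miRNAs 4 were measured, with a summed level of 362 to 450 CPM in RSL3 and 398 to 462 CPM in DMSO libraries and 0 at 0 CPM in any library. The most abundant were miR-203-3p, at 391 ± 46.8 CPM in RSL3 and 410 ± 34.7 CPM in DMSO libraries, and miR-200b-3p, at 8.41 ± 1.88 and 8.55 ± 1.91 CPM (SD, n = 3 each). The other 2, miR-200c-3p and miR-200a-3p, had log2 fold changes of 0.64 and 0.25 (limma adjusted p = 0.29 and 0.64), so that 2 of the 4 were positive and the median was 0.11. The endocrine list of 3 was led by miR-7a-5p, at 181728 ± 26834 CPM in RSL3 and 225023 ± 38694 CPM in DMSO libraries, and miR-7b-5p, at 25541 ± 4167 and 30817 ± 4717 CPM, and had a median log2 fold change of -0.27. The third member, miR-375-3p, was at 255 ± 35.8 CPM in RSL3 and 214 ± 7.06 CPM in DMSO libraries, a log2 fold change of 0.24 (limma adjusted p = 0.33). The 5 neuronal markers, with miR-128-3p at 2019 ± 321 CPM in RSL3 and 2156 ± 261 CPM in DMSO libraries, had a median of 0.12. The 4 fibroblast and smooth muscle markers, led by miR-143-3p at 35522 ± 603 and 35568 ± 1563 CPM, had a median of -0.29. The 2 endothelial markers had a median of -0.04, with miR-126a-5p at 42.5 ± 9.29 CPM in RSL3 and 58.5 ± 4.95 CPM in DMSO libraries. In limma and edgeR 0 entries of any of these lists passed, against 0.751% and 0.901% of all miRNAs. Over all miRNAs with an adjusted p, DESeq2 called 10.5%. DESeq2, which gave no adjusted p to miR-200a-3p, miR-200b-3p and miR-200c-3p, called miR-126a-3p (endothelial, 802 ± 72.5 CPM in RSL3 and 614 ± 29.8 CPM in DMSO libraries) and miR-145a-5p (smooth muscle, 666 ± 78.4 and 952 ± 93.0 CPM). As the labels name N2a cells only, these levels were not read as the presence of other cell types.

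To show which messages the 3 seeds could pair with, 3′ untranslated regions (UTRs) of the GENCODE annotation were searched for the exact complement of bases 2 to 8. The strings were GTGCCAT for miR-183-5p, GTGCCAA for miR-96-5p and TTGCCAA for miR-182-5p, on the messenger strand, in the longest UTR of each of 21020 genes. They were present in 8.81%, 7.93% and 10.9% of these, and at least 1 of the 3 in 23.1%. These strings are descriptions of the annotation, since no messenger RNA was measured here, and both gene lists were written after the miRNA values were seen.

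All 7 genes studied before as targets of the cluster held a match to at least 1 strand, against 23.1% of all genes. Their UTRs had a median of 2377 bases, against 961 bases over all genes. These genes were listed as known targets, so the count is not a test of the seeds. Foxo1 held 1 match to each strand, of which those to miR-183-5p and miR-96-5p lie close together, starting at UTR positions 234 and 260. They are printed 5′ to 3′ with the match in capitals.
Foxo1, miR-183-5p match: taaggactGTGCCATtgggaatc
Foxo1, miR-96-5p match: acaatgaaGTGCCAAactcacta
Foxo1, miR-182-5p match: gtttgctcTTGCCAAaagctgcc
Adcy6, an adenylyl cyclase studied in the retina with this cluster, held 1, 3 and 2 matches to miR-183-5p, miR-96-5p and miR-182-5p in 2377 bases. Clock, a gene of the circadian oscillator, held 2 to miR-182-5p and 0 to the others. Aqp5 and Celsr2, studied as miR-96 targets in deaf mice, held 2 and 1 to miR-96-5p.

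Of 17 genes that act in ferroptosis, 4 held a match to any of the 3 strands, a share near the 23.1% of all genes. Their UTRs had a median of 1338 bases, against 961 bases over all genes, so these shares are not matched for UTR length. The UTRs of Gpx4, the target of RSL3, of Slc7a11, the cystine transporter subunit, and of Acsl4, which prepares the lipids that peroxidise, held 0 matches. Ncoa4, the receptor that delivers ferritin for breakdown, held 2 matches to miR-182-5p, and Tfrc, the transferrin receptor, held 1. Aifm2, a suppressor of lipid peroxidation, held 1 match to miR-96-5p, and Hmox1, which breaks down haem, held 1 to miR-183-5p. The matches to miR-182-5p, the strand with the most reads of the cluster, were the following.
Ncoa4, UTR position 72: actgcgatTTGCCAAaccattgt
Ncoa4, UTR position 466: agttaaccTTGCCAAtacagtat
Tfrc, UTR position 2349: gtttggacTTGCCAAcctatact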

How the data were processed

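Small RNA was sequenced in 3 RSL3 and 3 DMSO libraries of N2a cells. Per the submitters' processing notes, cutadapt, Bowtie and edgeR were used with the build GRCm38, with settings that no source used here states. The deposited signal per mature miRNA is named CPM by the authors, and its sums per library differed and were not fixed at the total of a plain CPM. All values were whole multiples of 1 step per library (100% within 0.01). The factor left after recovering the reads equalled the TMM factor that edgeR computes from them, 0.936 to 1.05, so the signal is TMM-scaled CPM. The design had assumed plain CPM.

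Fits in limma 3.58.1 (R 4.3.3) took log2(CPM + 1) values with a trend of variance on mean, two-sided, with Benjamini-Hochberg adjustment over the 666 miRNAs at 1 CPM or more in at least 3 libraries, and a threshold of 0.05. The step was tested on simulated data whose spread between libraries was set lower than that of miR-183-5p here. That test therefore does not cover strands with such spread. Alternatives with edgeR 4.0.16 and DESeq2 1.42.0 used the recovered reads. Replicates differed by far more than counting noise (chi-square per degree of freedom at least 82.8), so none was treated as a copy. Named miRNAs were the members, their seed relatives, the 5 nearest profiles, and the called and the 2 most abundant members of each list. Outside that rule, miR-204-5p, miR-124-3p, miR-135a-5p, miR-375-3p, miR-200a-3p and miR-200c-3p were chosen after their values were seen. The marker entries DESeq2 called, miR-126a-3p and miR-145a-5p, fall under the rule by abundance. The members and lists were chosen with earlier results of these data known. Arm ratios were not run because only 5p strands of the cluster are analysed here.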

Additional observations from a re-analysis of the deposited data

How the results depend on the processing

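Over 18 alternatives miR-182-5p kept a positive log2 fold change of 0.24 to 0.48 and did not pass, with limma, edgeR or DESeq2 adjusted p-values of 0.13 to 0.59. Over 17 alternatives miR-96-5p kept a negative one of -0.95 to -0.12 (adjusted p 0.16 to 0.85), and with a 10 CPM filter it was not tested. For miR-183-5p the range with a library left out was -0.33 to 0.51, and 15 of 18 alternatives kept its sign. In these counts the filter, variance-trend and replicate-block settings kept a member's sign by construction, since they cannot move its fold change, only its p-value. The replicate block also cannot move the differences in the ratios and the summed level. The ratio of miR-183-5p to miR-182-5p differed by -0.57 to 0.10 with a library left out. The other 2 ratios and the summed level kept their direction in the alternatives run. The ratio of miR-96-5p to miR-182-5p differed by -1.19 to -0.49, that of miR-183-5p to miR-96-5p by 0.25 to 1.01, each nearest to 0 with a pseudocount of 5, and the summed difference was 1.32 to 19.2 CPM. Scaling the sum by reads alone, chosen after seeing the data, gave 8.36 CPM. The count of miRNAs called higher, 4 as reported, was 1 without a variance trend, 1 with a replicate block, 19 in DESeq2 and 1 to 14 with a library left out. The count called lower, 1 as reported, was 3 with a 10 CPM filter, 0 with median centring, 0 without a variance trend, 0 with the replicate block, 12 once library scaling left out the top 5 miRNAs, 2 in edgeR, 21 in DESeq2 and 0 to 12 with a library left out. The cause was not tested. Same-numbered libraries did not deviate together (correlations of -0.35, -0.33 and -0.19 for numbers 1 to 3), so the numbers were not taken as pairs. With the replicate block the adjusted p was 0.59 for miR-182-5p, 0.92 for miR-183-5p and 0.61 for miR-96-5p. Depth limits miR-96-5p most: a read was worth 0.157 to 0.314 CPM, and its values rest on 0 to 11 reads.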

Other observations

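The measured miRNAs nearest to the cluster on chromosome 6, within 1 Mb, were both arms of miR-335, 571576 bases beyond Mir183, and 4 entries of miR-29a and miR-29b, of which miR-29b-3p can also come from Mir29b-2 on another chromosome. They were chosen after their values were seen. At this distance miR-335-3p was at 3478 ± 99.1 CPM in RSL3 and 3270 ± 324 CPM in DMSO libraries (SD, n = 3 each), far above the cluster, and its partner miR-335-5p at 546 ± 114 and 410 ± 62.6 CPM. The log2 fold changes of these 6 entries ran from -0.44 for miR-29b-1-5p to 0.40 for miR-335-5p, and 0 of them passed in limma (adjusted p 0.22 to 0.96), against 0.751% of all miRNAs.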
